A study of Gallus gallus with 4 samples.

Results

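The 4 genes described here are called lipid carriers. FABP3 and FABP5 encode fatty acid binding proteins, which carry fatty acids inside cells. APOA1 and APOH encode apolipoproteins, which are secreted and bind lipid. All 4 were chosen by name out of the 21328 genes counted in single cells of the chick trunk. Their tissue and stage patterns in these data were already known. Their own levels are therefore described without a test. Tests were kept for other genes of lipid handling. Each of the 4 symbols matched 1 RefSeq gene of the GRCg7b assembly, a later build than the GRCg6a reference used for counting, so that no coordinates are given.

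Cells came from chicken embryos, with no strain, treatment or genetic change stated, staged by somite number as 4S, 7S, 10S and 13S. The dissected tissue was everything from the third somite to the tail end. A minimum of 4 embryos was pooled for each stage and 1 droplet library (10x Genomics 3′ v3.1) was made per stage, so that stage and library cannot be told apart and stages were not tested against each other. The study followed how axial progenitors give rise to trunk tissue and notochord.

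Fatty acid binding proteins are small cytoplasmic proteins that hold a fatty acid in a barrel and deliver it to membranes, oxidation or nuclear receptors. In mammals FABP3 is the heart and muscle type and FABP5 the epidermal type, which is also made in the developing nervous system. APOA1 is the main protein of high-density lipoprotein and, in birds, is made by many tissues besides liver, whereas APOH, or β2-glycoprotein I, is a plasma protein that binds anionic phospholipid and is best known as a liver product. In the chick embryo, lipid comes from the yolk and reaches the tissues through yolk sac endoderm as lipoprotein particles.

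After cells under 2500 UMIs or over 7.5% mitochondrial UMIs were left out, 25379 of 27391 cells remained. All 2012 removed cells were from the 7S library, which had the lowest median depth, 3758 UMIs per cell against 7182 to 8849 in the other libraries. Of the kept cells, 63 barcodes occurred in more than 1 library. Tissues were defined by marker gates: a cell was gated where a first marker and a second marker of that tissue each had a UMI and no other gate was met. The 10 gates with at least 50 cells held 131 to 6180 cells, and 10895 cells stayed ungated, 6624 because they met no gate and 4271 because they met several. Of 41 further markers not used for gating, 27 had their highest mean in their own gate, including 5 of 5 for the notochord and 4 of 4 for blood and vessel, but 2 of 5 for the endoderm, where FOXA1 and SHH were higher in the notochord gate and HHEX in the blood and vessel gate. The surface ectoderm had 2 of 4, with KRT18 at 729 CPM against 1667 in the endoderm gate and EPHA1 higher in the caudal streak gate, and the caudal paraxial mesoderm 1 of 4 (DLL1). Levels are in CPM, the UMIs of a gene per 1000000 UMIs summed over all cells of a gate in a library, given as the mean ± SD of 4 libraries where pooled. That SD holds stage and library differences together.

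FABP3 was led by the surface ectoderm gate (TFAP2A with a keratin, WNT6, DLX5 or TP63), which held 862 cells. Its level there was 687, 487, 711 and 683 CPM in the 4S, 7S, 10S and 13S libraries (642 ± 104, n = 4). The cells of all other gates together were at 19.1 ± 15.9 CPM, and the surface ectoderm gate was 16.0 to 69.2 times higher in each of the 4 libraries. The lateral plate gate came next at 52.7 ± 18.7 CPM, below every surface ectoderm value. From there down, the ranges of neighbouring gates overlapped, from the caudal streak (24.5 ± 25.4) and notochord (19.2 ± 7.18) to the somite (5.98 ± 2.50) and intermediate mesoderm (5.35 ± 10.7, from 2 UMIs).

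FABP3 transcripts were spread widely over surface ectoderm cells. With every cell thinned to 2500 UMIs, 584 of 862 cells in this gate had a FABP3 UMI (67.7%, exact 95% interval 64.5 to 70.9), and the share ran from 61.5% at 7S to 75.0% at 4S. Free RNA can put a UMI into a cell that does not make a gene, so the gate with the lowest share serves as the background. Being the lowest of 10 gates, pooled over libraries, it tends to be exceeded by other gates. Free RNA itself was not measured in any library. For FABP3 the background gate was the intermediate mesoderm, with 0 of 131 cells, where the interval reaches 2.78%. Median depths were 7543.5 UMIs in the surface ectoderm gate and 7664 in the intermediate mesoderm gate, and the unthinned shares were 86.1% and 0.763%. Cells with a UMI of the epidermal keratin KRT14 were at 696, 703, 862 and 899.7 CPM from 4S to 13S, and surface ectoderm cells without were at 677, 365, 581 and 567 CPM. The difference was small at 4S and larger in the 3 later libraries. KRT14 is itself a second marker of the gate. A split by GRHL3, another epidermal gene, showed no such difference. FABP3 was at 600 ± 199 CPM with a GRHL3 UMI and 644 ± 84.0 without, and higher with it in 2 of 4 libraries. These and the other splits within a gate by a further gene, apart from PAX6, were picked after the values had been seen.

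**Figure D1:**
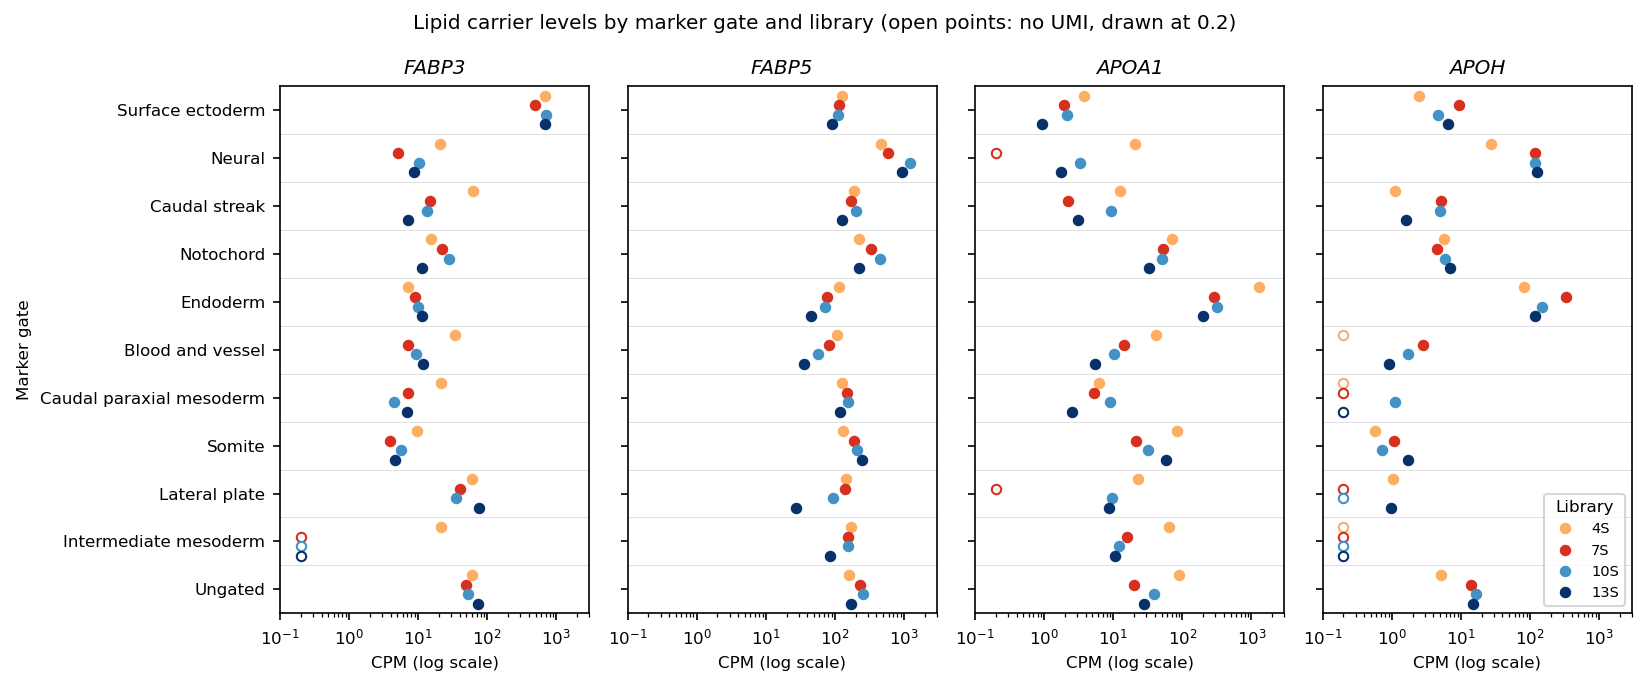
Level of each lipid carrier, in CPM on a log scale, in 10 marker gates and in ungated cells; each point is 1 library and open points, drawn at 0.2, had no UMI. FABP3 stood highest in the surface ectoderm gate (487 to 711), FABP5 in the neural gate (464 to 1226), APOA1 in the endoderm gate (196 to 1296) and APOH in the endoderm and neural gates (27.5 to 337).

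The ungated cells held 42.7% of all FABP3 UMIs, slightly more than the 42.4% of the surface ectoderm gate. Among them, 771 cells with a UMI of KRT14 or of the ectodermal ligand WNT6 were at 429 ± 105 CPM and held 23.0% of all FABP3 UMIs. Cells with any TFAP2A UMI, gated or not, made up 6.10% of all cells and held 54.1% of FABP3 UMIs. Ungated cells without a TFAP2A UMI held 31.6% of FABP3 UMIs in 40.8% of cells. The caudal streak gate (TBXT with MSX1) held 9.10% of FABP3 UMIs in 24.4% of cells, less than its part of the cells. There FABP3 was at 62.3, 15.0, 13.6 and 7.04 CPM from 4S to 13S (612 UMIs at 4S), a step down in each library and 8.84-fold lower at 13S than at 4S (95% interval of the ratio 0.0890 to 0.142). Streak cells without a TFAP2A UMI showed the same fall, from 61.7 to 6.02 CPM. The fall was not confined to the streak. From 4S to 13S FABP3 went from 34.5 to 11.9 CPM in the blood and vessel gate and from 21.1 to 6.84 in the caudal paraxial mesoderm. The somite gate went from 9.58 to 4.69 CPM. The lateral plate (61.0 and 75.1 CPM) and surface ectoderm (687 and 683 CPM) gates showed no such fall. The notochord (15.3 and 11.5 CPM) and endoderm (7.16 and 11.2 CPM, 5 and 2 UMIs) gates gave no clear fall. In the neural gate FABP3 went from 20.6 CPM (6 UMIs) to 8.64 CPM. The part of free RNA in these falls was not tested. In whole libraries FABP3 was at 64.4, 38.3, 54.4 and 77.4 CPM. With the surface ectoderm gate left out, the values were 50.9, 28.5, 29.7 and 38.7 CPM. The gate grew from 2.19% of cells at 4S to 5.42% at 13S, and its share of FABP3 UMIs from 22.7% to 53.1%.

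The 5 genes whose levels over the 40 sums of gate and library were most like those of FABP3 were PKIB, GRHL3, KRT14, WNT6 and NPPA, with Pearson r of log2(CPM + 1) from 0.76 to 0.82 among 8101 genes. GRHL3, a transcription factor of epidermal barrier formation, KRT14 and WNT6 are surface ectoderm genes, and KRT14 and WNT6 helped define the gate. The sums share libraries and gates and are not independent, so these are descriptions.

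FABP5 was counted far more broadly, with 42321 UMIs in 55.4% of all cells against 11047 UMIs of FABP3. Its highest level was in the neural gate (HES5 with SOX2, SOX1, SOX21 or PAX6; 1312 cells), at 464, 589, 1226 and 940 CPM from 4S to 13S (805 ± 346, n = 4). The cells of other gates were at 168 ± 18.6 CPM. The neural gate was 2.82 to 6.46 times higher, and its lowest library lay above the highest of the next gate, the notochord (223, 334, 454 and 221 CPM). The following gates were close together and overlapped: somite 195 ± 49.3, caudal streak 174 ± 33.3, intermediate mesoderm 142 ± 39.2, caudal paraxial mesoderm 138 ± 17.2 and surface ectoderm 111 ± 15.1 CPM. Endoderm (77.1 ± 28.7) and blood and vessel (70.3 ± 30.4) were lowest.

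On thinned counts 67.5% of neural cells had a FABP5 UMI (95% interval 64.9 to 70.1), against a background of 15.0% in the endoderm gate (36 of 240 cells, 10.7 to 20.2), with median depths of 7288.5 and 6265.5 UMIs and unthinned shares of 82.9% and 37.9%. The blood and vessel gate (16.1%) and the lateral plate gate (17.9%) lay within that background interval. Their FABP5 shares, pooled over libraries, thus cannot be told from that of the endoderm gate. How much of any of these shares is free RNA was not measured. The share of neural cells with a UMI hardly moved between libraries, from 62.1% at 4S to 69.7% at 10S, while the level differed 2.03-fold between 4S and 13S (95% interval 1.71 to 2.42). The 4S value rests on 29 cells and 135 UMIs.

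Within the neural gate FABP5 was uneven. Cells with a UMI of CDX4, a homeobox gene of the posterior body, were at 509, 1009, 2008 and 1293 CPM from 4S to 13S, and neural cells without it at 446, 396, 427 and 339 CPM. The gap was small at 4S, where 7 cells had a CDX4 UMI, and wider in each later library. Cells with a UMI of ZIC1, a dorsal neural transcription factor, ran the other way at 144, 252, 214 and 264 CPM, against 498, 606, 1325 and 1012 CPM without, the 4S value being from 2 cells. Neural cells without a UMI of PAX6, which marks maturing neural tube and is itself a second marker of the gate, were at 382, 1054, 1995 and 1161 CPM, and those with PAX6 at 551, 470, 903 and 852 CPM, so that the order at 4S was opposite to that of the other 3 libraries. In the notochord gate (CHRD with NOTO or SHH), FABP5 was higher in cells with a UMI of CYP26A1, a retinoic acid degrading enzyme of the tail end: 357, 573, 701 and 551 CPM against 203, 308, 405 and 191 CPM in cells without it, with 10 to 40 such cells per library.

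**Figure D2:**
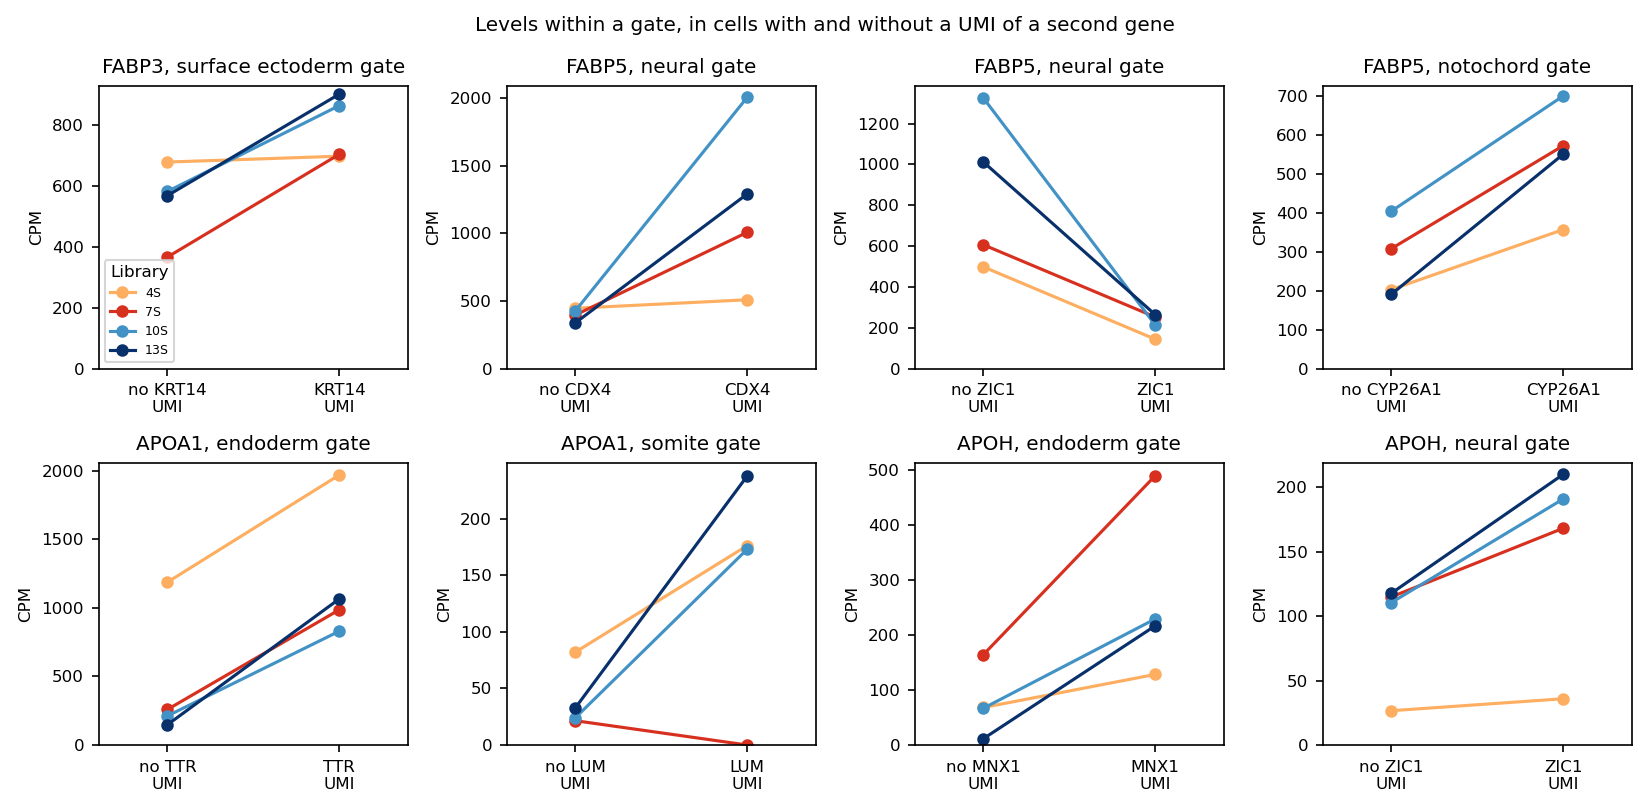
Level in CPM of a lipid carrier within a gate, in cells without (left) and with (right) a UMI of a second gene; each line joins the values of 1 library. FABP5 was higher with CDX4 and lower with ZIC1 in the neural gate in 4 of 4 libraries, and APOH was higher with MNX1 in the endoderm gate in 4 of 4; the LUM split of the somite gate has 1 cell with LUM at 4S and 8 at 7S.

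Over the stages FABP5 went in different directions in different tissues. In the somite gate (MEOX1 with TCF15) it stepped up in each library, from 131 to 192, 206 and 250 CPM, 1.91-fold between 4S and 13S (95% interval 1.72 to 2.13). In the lateral plate gate it stepped down from 146 to 142, 92.9 and 27.3 CPM, 5.35-fold, and in the blood and vessel gate from 106 to 35.8 CPM, 2.97-fold. In the endoderm gate the fall was 2.56-fold, from 80 UMIs at 4S and 8 at 13S. Pooled over libraries, the shares of cells in these 3 gates lay at the background, for which the endoderm gate itself was used. The part of free RNA in the falls was not tested. In whole libraries FABP5 was at 164, 215, 298 and 216 CPM. The neural gate grew from 0.720% of cells at 4S to 6.55% at 13S and its share of FABP5 UMIs from 2.20% to 32.5%. Without that gate the libraries were at 162, 199, 221 and 158 CPM, so that 4S and 13S then differed little.

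The genes most like FABP5 over the 40 sums were NCAM1, a neural cell adhesion molecule, SOX1, which is a second marker of the neural gate, GDPD4, and 2 loci named by identifier only, with r from 0.75 to 0.79. Among the neural cells, FABP5 and APOH were found in the same cell in 17.1% of cells on thinned counts, and the product of their separate shares was 16.9%.

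APOA1 was the most unequal of the 4 between cells. Its 6388 UMIs lay in 2083 of 25379 cells, and the 1% of cells richest in it held 59.8% of the UMIs, against 32.8% for FABP3, 17.5% for FABP5 and 35.9% for APOH. The endoderm gate (SOX17 with a second marker such as FOXA2, CDH1 or EPCAM; 240 cells) led at 1296, 282, 313 and 196 CPM from 4S to 13S (522 ± 519, n = 4), against 17.3 ± 9.82 CPM in the cells of other gates. The endoderm was 13.0 to 41.5 times higher in each library, and the 4S value stood far above the other 3. On thinned counts 87.1% of endoderm cells had an APOA1 UMI at 4S (95% interval 78.5 to 93.2), and 37.5%, 46.1% and 39.1% at 7S, 10S and 13S. The gate held 93, 48, 76 and 23 cells from 4S to 13S, so the later shares rest on few cells. The background was 2 of 862 surface ectoderm cells (0.232%, 0.0281 to 0.836), with median depths of 6265.5 and 7543.5 UMIs. Unthinned shares were 75.8% and 1.28%.

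Part of the 4S level came from few cells. In the data, 27 cells held at least 20 APOA1 UMIs, with 488 in the highest. The 4S library had 16 of them, 10S had 8, 13S had 3 and 7S had none. Of these, 9 were in the endoderm gate, all at 4S, 17 were ungated and 1 was in the caudal streak gate. They also carried plasma protein transcripts, of genes picked after their values had been seen: TTR, which carries thyroid hormone, at 9529 CPM against 12.1 CPM in all other cells, the retinol carrier RBP4A at 5785 against 2.41, the fibrinogen chain FGB at 1208 against 4.84, and the apolipoproteins APOC3 at 3066 against 11.8 and APOB at 1020 against 0.0998. These CPM are from counts summed over the 27 cells, not all of which had each transcript. A UMI was found in 19 of them for TTR, 23 for RBP4A, 23 for FGB, 26 for APOC3 and 10 for APOB. Without the 27 cells the endoderm gate at 4S was at 793 CPM (95% interval 724 to 867). Its values at 7S, 10S and 13S did not change, since none of these cells was in the gate there.

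The dissected tissue could hold yolk sac or hypoblast endoderm, for which 8 markers were listed (HNF4A, GATA6, CUBN, AMN, LRP2, CER1, APOB and TTR). In the endoderm gate their summed level was 193, 27.3, 432 and 33.6 CPM from 4S to 13S, of which TTR made up 129, 9.11, 402 and 16.8 CPM, and 6 of 8 had a UMI. HNF4A and AMN had none, and CUBN and APOB had 1 each. In other gates the sums ran from 2.39 to 101 CPM. The 27 cells richest in APOA1, of which 17 were ungated, carried more of these markers than APOB and TTR. CUBN was at 74.3 CPM there (15 UMIs) against 0.183 in all other cells, GATA6 at 89.1 against 3.53 and LRP2 at 44.6 against 8.12. A UMI of CUBN was found in 7, of GATA6 in 10 and of LRP2 in 6 of the 27 cells. AMN had 2 UMIs in them, CER1 had 1 and HNF4A had 0. Of the endoderm gate markers, SOX17 was at 223 CPM in the 27 cells against 8.17 in all other cells, and FOXA2 at 178 against 10.8. A UMI of SOX17 was found in 11 of the 27 cells and of FOXA2 in 12. The 9 cells in the endoderm gate have SOX17 by definition. The part of yolk sac or hypoblast cells in the APOA1 level was not tested.

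APOA1 also had a mesodermal pattern. In the somite gate it was at 82.4, 21.2, 31.4 and 57.0 CPM from 4S to 13S, and in the caudal paraxial mesoderm gate (MSGN1 with TBX6), which precedes somites, at 6.22, 5.31, 8.97 and 2.49 CPM. The somite gate was higher in each library and the ranges did not overlap. On thinned counts 9.15% of somite cells had an APOA1 UMI (95% interval 8.18 to 10.2), above the 0.836% to which the background interval reaches. That background is pooled over libraries. In the neural gate, another gate with little APOA1, the level was 20.6 CPM at 4S (6 UMIs) and 1.73 CPM at 13S. The part of free RNA in the somite level was not tested. Somite cells that still had a UMI of TBX6 were at 57.5, 0, 8.77 and 10.3 CPM, below somite cells without it (85.4, 22.4, 33.8 and 64.4 CPM) in each library. Somite cells with a UMI of the matrix proteoglycan LUM were at 173 CPM at 10S (62 cells) and 238 at 13S (102 cells), against 24.1 and 32.9 CPM without. At 4S and 7S only 1 and 8 cells had LUM. At 4S the somite gate also held CER1 at 78.4 CPM and GATA6 at 11.6 CPM, both on the yolk sac list, against 0 and 0.469 CPM at 13S, and their part in the 4S level was not tested. The notochord gate was at 70.0, 51.6, 50.6 and 33.2 CPM, overlapping with the somite gate (51.3 ± 15.0 against 48.0 ± 27.5).

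**Figure D3:**
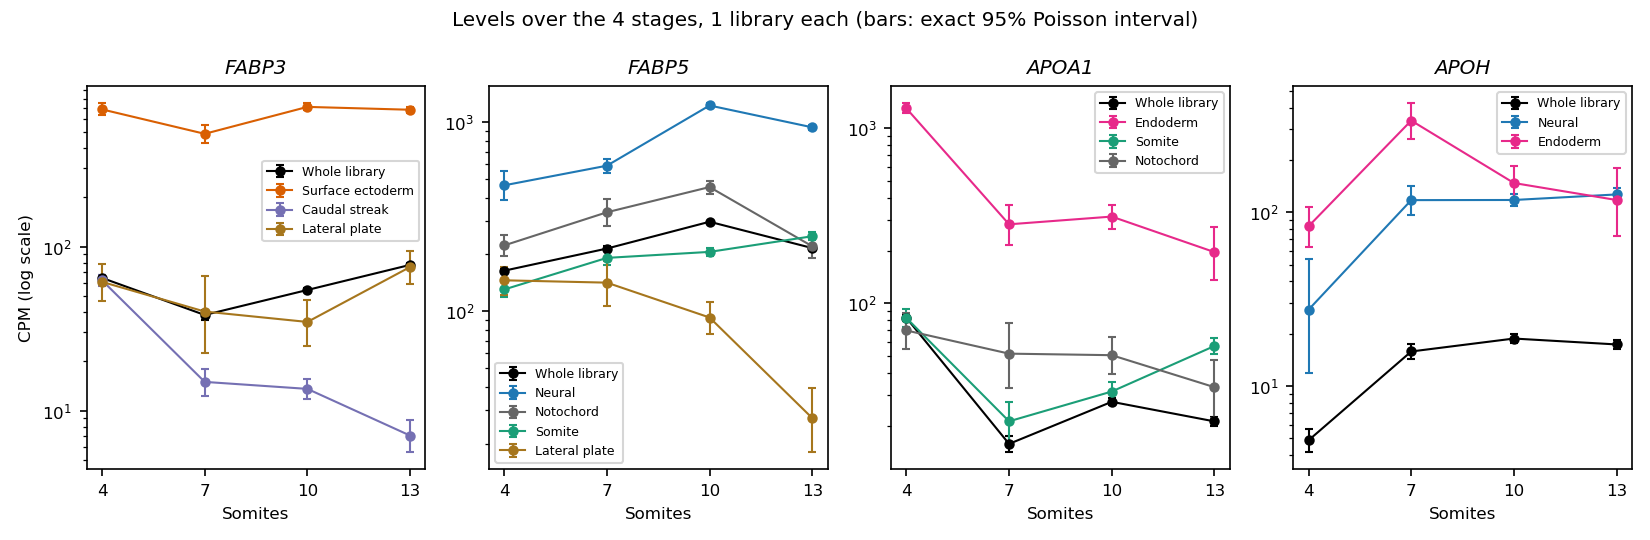
Level of each lipid carrier in CPM on a log scale against the number of somites, in whole libraries and in selected gates, with exact 95% Poisson intervals that cover counting error only. APOA1 was lower at 13S than at 4S in the endoderm gate (196 against 1296) and APOH higher in the neural gate (127 against 27.5); each stage is 1 library.

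In whole libraries APOA1 was at 82.6, 15.8, 27.4 and 21.2 CPM from 4S to 13S, 3.90-fold lower at 13S than at 4S (95% interval of the ratio 0.239 to 0.274). For scale, 5.86% of the 6656 genes with at least 10 CPM at 4S or 13S were lower at 13S by 1.5-fold or more. Without the endoderm gate the libraries were at 59.5, 13.3, 25.2 and 20.6 CPM, and without the 27 richest cells at 43.9, 15.8, 20.5 and 17.5 CPM, so that 4S stayed the highest either way. The endoderm gate shrank from 2.31% of cells at 4S to 0.339% at 13S, and its share of APOA1 UMIs from 29.3% to 3.05%, while that of the somite gate went from 9.20% to 31.8%. The ungated cells held 55.3% of APOA1 UMIs over all libraries.

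Most like APOA1 over the 40 sums were APOC3, EOMES, TPM4, DKK3 and JAGN1, with r from 0.72 to 0.77, and each had its highest mean in the endoderm gate. APOC3, an apolipoprotein that inhibits lipoprotein clearance, was at 74.7 ± 38.5 CPM there. In the GRCg7b annotation APOA5, APOA4 and APOC3 lie in a row beside APOA1, with a microRNA gene between APOC3 and APOA1. APOA4 had 8 UMIs in all kept cells.

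APOH was the rarest of the 4, with 2718 UMIs and at most 12 in a cell, and it lay in 2 gates. In the endoderm gate it was at 83.1, 337, 147 and 118 CPM from 4S to 13S (171 ± 114). In the neural gate it was at 27.5, 117, 118 and 127 CPM (97.3 ± 46.7). The endoderm gate was higher in 3 of 4 libraries and the ranges overlapped, so that the pair cannot be ordered. Both were above the third gate, the surface ectoderm at 5.81 ± 2.97 CPM, in every library. The notochord gate was at 5.76 ± 0.981 CPM, and the somite, lateral plate, caudal paraxial mesoderm and intermediate mesoderm gates were at 0 to 1.72 CPM in all libraries. The intermediate mesoderm gate had no APOH UMI.

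On thinned counts APOH was found in 25.1% of neural cells (95% interval 22.8 to 27.5) and 23.3% of endoderm cells (18.1 to 29.2), against a background of 0 of 665 caudal paraxial mesoderm cells, where the interval reaches 0.553%. Median depths were 7288.5, 6265.5 and 6883 UMIs, and unthinned shares 51.6%, 45.8% and 0.301%. Cells with any HES5 UMI held 61.7% of all APOH UMIs and made up 11.7% of cells.

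The endoderm gate was also split by MNX1. Cells with a UMI of MNX1, a homeobox gene, were at 128, 490, 230 and 217 CPM of APOH from 4S to 13S. Cells without it were at 68.3, 165, 66.9 and 11.6 CPM, the 13S value being from 1 UMI in 11 cells. Cells with MNX1 were thus higher in 4 of 4 libraries. For APOA1 the same cells were at 508, 275, 290 and 250 CPM, against 1552, 290, 335 and 139 CPM without MNX1, and lower in 3 of 4. Endoderm cells with a TTR UMI, 2 to 14 per library, were at 1967, 985, 829 and 1064 CPM of APOA1, against 1186, 259, 212 and 148 CPM in the others. In the neural gate APOH was higher in cells with ZIC1 (35.9, 168, 191 and 210 CPM) than in those without (26.6, 115, 110.5 and 118 CPM) in each library, with 2 such cells and 1 UMI at 4S. By ZIC1, APOH thus ran opposite to FABP5, but not by CDX4. With a CDX4 UMI APOH was at 122 ± 66.8 CPM and without at 85.1 ± 46.2. It was higher with CDX4, as FABP5 was, in 3 of 4 libraries, and lower at 13S. By PAX6, APOH was at 92.9 ± 45.6 CPM with and 116 ± 72.3 without, and higher with PAX6 in 2 of 4 libraries. In the surface ectoderm gate the 336 cells with KRT14 had no APOH UMI, and all 39 lay in the 526 cells without KRT14.

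APOH rose over the stages in whole libraries, from 4.87 CPM at 4S (182 UMIs) to 15.8, 18.8 and 17.3 CPM, 3.56-fold from 4S to 13S (95% interval 3.04 to 4.20), beside 7.18% of genes that were higher at 13S by 1.5-fold or more. The step lay between 4S and 7S. In the neural gate the ratio was 4.61 (2.32 to 10.7), from 8 UMIs at 4S. Without the neural and endoderm gates the libraries were at 3.19, 8.46, 9.40 and 8.13 CPM. The neural gate held 4.40% of APOH UMIs at 4S and 54.6% at 13S, and the endoderm gate 31.9% and 2.23%. FABP3 and FABP5, at ratios of 1.20 and 1.32 between 13S and 4S, stayed inside the 1.5-fold limit.

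**Figure D4:**
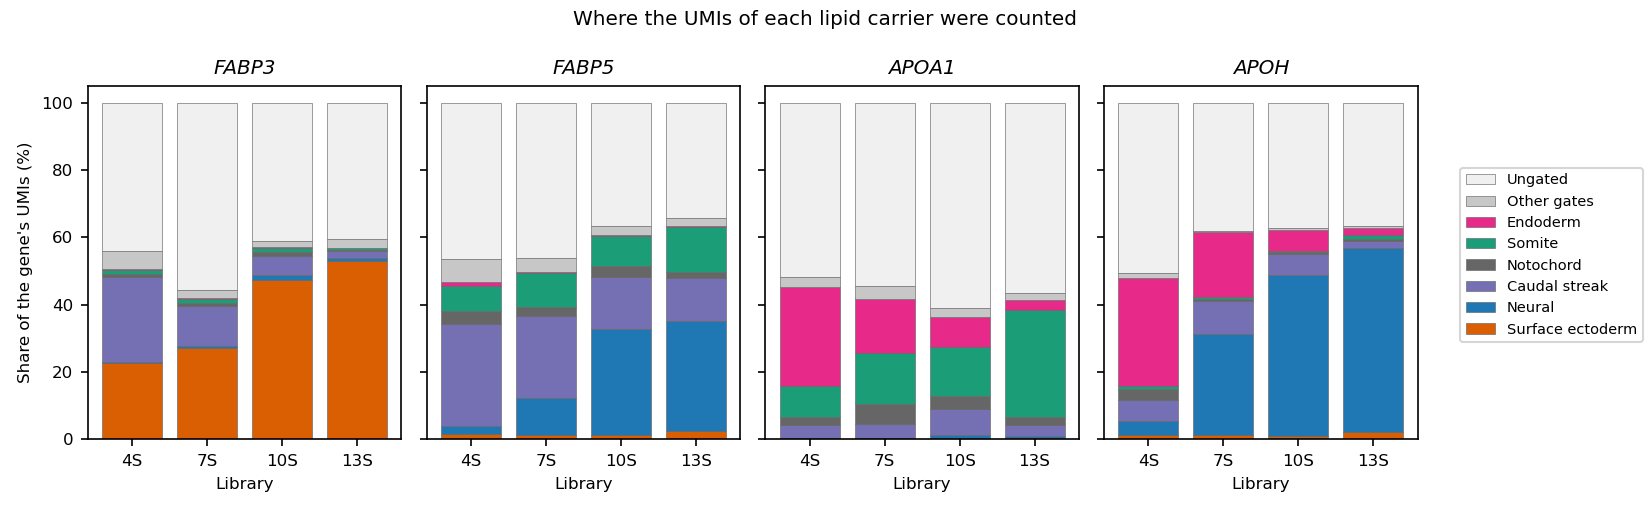
Share of the UMIs of each lipid carrier, in percent of its UMIs in a library, that lay in each gate, with the smaller gates joined and the ungated cells on top. The surface ectoderm part of FABP3 grew from 22.7% at 4S to 53.1% at 13S and the neural part of APOH from 4.40% to 54.6%, while the endoderm part of APOA1 shrank from 29.3% to 3.05%.

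Among the genes most like APOH were DIO2, PLEK2, NKX6-2 and CBLN1, with r from 0.84 to 0.94. DIO2 activates thyroid hormone and NKX6-2 is a ventral neural transcription factor. The mean of DIO2 was highest in the neural gate, at 24.4 CPM, and that of CBLN1 in the endoderm gate, at 32.7 CPM. Between the 4 lipid carriers themselves r ran from -0.27 to 0.29, so that no pair was alike over gates and libraries.

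To see how other genes of lipid handling behaved, 102 were listed in 7 groups, of which 88 were in the files. The lists were chosen with earlier results of these data known, so the counts of calls are no independent support. The plasma protein group also holds genes outside lipid handling, such as TF and FGB. In each of 4 gates the summed counts of the listed genes were compared with the sums of the cells of all other gates over the 4 libraries (edgeR quasi-likelihood test, library as a block, Benjamini-Hochberg adjustment over all genes, threshold 0.05). In the surface ectoderm gate 15 of 49 tested list genes were higher and 4 lower, where 13.1% of all 10625 genes were higher and 12.3% lower. The median log2 difference of the list was -0.06, and of all genes -0.02. All 3 called genes of the FABP family and its relatives, named here after their values had been seen, were higher: FABP7, the brain-type family member, at 1716 ± 890 against 631 ± 165 CPM, FABP6 and the retinoic acid carrier CRABP2. Of the genes of fatty acid uptake, activation and storage, 6 of 16 were higher and none lower. The largest rise was in SPINK5, a protease inhibitor of skin that had been listed with plasma proteins, with a log2 difference of 5.66 ± 0.50 (SE; adjusted p = 1.99e-06), at 2.52, 411, 259 and 192 CPM and thus not higher than other gates at 4S (4.24 CPM). DGAT2, which makes triglyceride, rose by 1.65 ± 0.42 (adjusted p = 0.0107) and VLDLR, a lipoprotein receptor that also takes up yolk lipoprotein in the hen, by 1.62 ± 0.27 (adjusted p = 0.000477). The iron carrier TF fell by 2.86 (adjusted p = 1.92e-05), TTR by 1.67 (adjusted p = 0.00366) and RBP4A by 1.59 (adjusted p = 0.0361). These falls are against the other gates pooled. That pool held the notochord gate at 267 CPM of TF, and the endoderm gate at 139 CPM of TTR and 120 of RBP4A. The falls do not place the surface ectoderm gate below each other gate. Without the 10S library DGAT2 (adjusted p = 0.0557), TTR (0.211) and RBP4A (0.215) lost the call, and RBP4A also without 4S (0.146) or 7S (0.0570).

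In the neural gate 8 of 50 tested list genes were higher and 10 lower, beside 10.5% and 12.4% of all 10554 genes. Median log2 differences were -0.09 for the list and -0.01 for all genes. The retinoid receptor RXRA rose by 1.83 ± 0.17 (25.8 ± 10.3 against 6.31 ± 0.529 CPM, adjusted p = 5.05e-07), as did the plasma and matrix protein VTN (1.29 ± 0.41, adjusted p = 0.0324) and the endocytic receptor LRP2 (1.20 ± 0.18, adjusted p = 7.6e-05). SPINK5 fell by 3.19 (adjusted p = 2.09e-08), TF by 2.37 (adjusted p = 1.25e-06) and TTR by 2.06 (adjusted p = 0.000212), the latter lower in 3 of 4 libraries. These falls too are against the pooled other gates. That pool held the surface ectoderm at 216 CPM of SPINK5, the notochord at 267 of TF and the endoderm at 139 of TTR. Neural TF, at 2.91 CPM, was not below the 2.01 CPM of all gates but the notochord. Neural SPINK5, at 2.01 CPM, was below the 4.04 CPM of all gates but the surface ectoderm. Of the 16 genes of fatty acid uptake, activation and storage, 2 were higher and 1 lower. VTN lost its call without the 10S (adjusted p = 0.150) or the 13S library (0.567) and TTR without 10S (0.257), and without 10S the calls came to 5 higher and 5 lower.

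In the notochord gate 10 of 50 tested list genes were higher and 10 lower, beside 14.4% and 14.7% of 10416 genes, with medians of 0.15 and -0.02. TF stood out at 80.5, 211, 341 and 435 CPM from 4S to 13S, against 0.979 to 3.30 CPM in other gates (log2 difference 7.04 ± 0.17, adjusted p = 1.55e-12). VTN rose by 2.73 ± 0.39 (adjusted p = 0.000114) and VLDLR by 1.55 ± 0.37 (adjusted p = 0.00554). APOD, a lipocalin and no kin of the other apolipoproteins, fell by 4.94 (0.426 ± 0.499 against 18.0 ± 13.3 CPM, adjusted p = 4.43e-06), SPINK5 by 2.66 (adjusted p = 0.00116), with UMIs in the gate at 10S alone (7.44 CPM), so that the size of its fall rests on that library, and FABP7 by 2.14 (157 ± 34.9 against 731 ± 243 CPM, adjusted p = 8.49e-09). The pool that SPINK5 was compared with held the surface ectoderm gate, at 216 CPM. FABP7 too was compared with pooled gates, and the endoderm gate alone was at 152 CPM of it, near the notochord gate. Without the 10S library VLDLR lost its call (adjusted p = 0.149) and the calls came to 7 higher and 4 lower. With CHRD as the only gate marker, VLDLR and SPINK5 changed direction.

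In the endoderm gate 15 of 51 tested list genes were higher and 9 lower, beside 7.41% and 8.56% of 10228 genes, with medians of 0.22 and -0.08. Of the plasma proteins 6 of 8 were higher and none lower: RBP4A by 6.33 ± 0.36 (120 ± 89.6 against 1.18 ± 0.806 CPM, adjusted p = 3.76e-67), the fibrinogen chains FGG by 5.25 ± 0.68 (adjusted p = 6.29e-13) and FGB by 4.95 ± 0.41 (adjusted p = 6.09e-32), and TTR, TF and SPINK5. FGG, at 0.202 ± 0.222 CPM in other gates, passed the count filter only through its endoderm counts. RBP4A, at 1.18 ± 0.806 CPM there, leaned on its endoderm counts too. A rise of such genes was close to fixed once they were tested, so their calls, also within the counts above, are no support. RBP4A, FGG, FGB and TTR were also high in the cells richest in APOA1. Without those cells the counts of calls were 15 higher and 9 lower. Of the lipases and export genes 3 of 5 were higher (also named after their values had been seen: LCAT, which esterifies the cholesterol of lipoproteins carrying APOA1, LPL and NPC2), and none lower. APOD fell by 4.14 (adjusted p = 1.4e-08) and CRABP2 by 2.83 (adjusted p = 0.000116). In the endoderm gate APOD had no UMI at 7S and 13S, and CRABP2 none at 4S and 10S, so the sizes of these falls rest on few counts. The falls are again against the pooled other gates. CRABP2, at 3.94 CPM, was near the blood and vessel gate (3.87) and the notochord gate (4.45). AMN, a yolk sac receptor subunit, had no UMI in the endoderm gate, at least 1.57-fold lower than in other gates (2.95 CPM) at the limit of 3 counts over the gate, and its adjusted p of 0.0257 rose to 0.264 without 4S, 0.0501 without 7S and 0.131 without 10S. The fit gave all genes of this gate a common spread, which makes its p-values small.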

How the data were processed

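The authors aligned reads of 4 libraries (10x Genomics 3′) with Cell Ranger 4.0.0 to GRCg6a, used DropEst to count UMIs over both exons and introns, analysed the counts in Scanpy and filtered potential doublets with Scrublet. The deposited values are raw UMI counts per gene and cell. Whether the deposited cells are those left after that filter is not stated in the sources used here, and no doublet caller was run on them. Library totals were 24490943 to 64453991 UMIs, and intervals cover counting error only.

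The 4 genes and all gene lists were chosen with earlier results of these data known. Cells kept had at least 2500 UMIs and at most 7.5% mitochondrial UMIs. Gates required a UMI of a first and a second marker. Counts were summed per gate and library and scaled to CPM. Gate sums were tested against sums of other gated cells with edgeR 4.0.16 (R 4.3.3, TMM, filterByExpr, quasi-likelihood test, library as a block, Benjamini-Hochberg adjustment at 0.05). The p-values set the difference between gate and other gates against how far it varied over libraries of different stages. The spread of each gene was drawn towards one shared by all genes, fully so in the endoderm gate. DESeq2 1.42.0 was an alternative. Shares of cells used counts thinned at random to 2500 UMIs and exact (Clopper-Pearson) 95% intervals. Levels had exact Poisson intervals. Stages, with 1 library each, had no test, only a fold limit of 1.5 among genes at 10 CPM or more.

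Named were the 4 genes, for each gate the 3 called list genes with the largest rise and fall, the 5 genes most like each of the 4, and gate and check markers. Other names are said to be chosen after seeing values. Some genes that this rule names are not reported here. The tests were checked on simulated counts, drawn with the same spread for every gene. Only genes above a minimum mean count were changed, so recovery for genes with fewer counts or a wider spread was not tested. Of 2-fold changes, 25% were recovered in the endoderm gate and 40% to 44% in the other tested gates. Of 4-fold changes, 71% were recovered in the endoderm gate and 89% to 92% in the others. A list gene without a call is therefore not shown to be unchanged. Python 3.11.15, numpy 2.4.6, scipy 1.17.1, pandas 2.3.3 and matplotlib 3.10.9 were used.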

Additional observations from a re-analysis of the deposited data

Results flagged for a closer look

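FABP5 in the caudal streak gate stood above the cells of other gates at 4S, with a ratio of 1.29, and below them at 13S, with a ratio of 0.389, a difference of 1.73 on the log2 scale. The direction of this gate against the others thus turned between the first and the last stage, while its own level was 191 CPM at 4S and 127 CPM at 13S. The difference was not tested, since each stage is 1 library. In the same libraries the neural gate, which is among the other gates, grew from 0.720% to 6.55% of cells. Its part in the turn was not tested.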

How the results depend on the processing

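Of 470 values under alternatives, 185 concerned the main comparisons, where 152 kept their direction and size class, 31 moved and 2 reversed, and 285 concerned single list genes, where 249 kept their call, 34 lost it and 2 reversed. Without the library block, calls among list genes went from 19 to 9 in the surface ectoderm gate and from 18 to 7 in the neural gate. DESeq2 called 11 in the neural gate, and CHRD alone left 4 of 20 in the notochord gate, with VLDLR at -0.56 and SPINK5 at 0.86. With 1 library left out, calls ranged from 14 to 22 (surface ectoderm), 10 to 17 (neural), 11 to 24 (notochord) and 20 to 25 (endoderm), the lowest neural and notochord counts being without 10S. Against all remaining cells, the log2 ratio of FABP3 in the surface ectoderm gate was 4.14 in place of 5.35.

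Between 13S and 4S, the share of cells in place of the level turned the log2 change of whole libraries to -0.30 for FABP3 (level 0.26) and -0.16 for FABP5 (level 0.40), so that no order is read from these shares. The share gave -1.23 for APOA1 (level -1.96) and 1.36 for APOH (level 1.83) in whole libraries, -2.64 for FABP3 in the caudal streak gate, 0.10 for FABP5 in the neural and 0.36 in the somite gate, -1.15 for APOA1 in the endoderm gate and 1.21 for APOH in the neural gate. Leaving out cells with at least 20 APOA1 UMIs, chosen after seeing the data, gave APOA1 -1.33 in whole libraries and -2.02 in the endoderm gate. With 2 UMIs of the first marker, FABP5 in the neural gate changed by 1.35 and APOA1 in the somite gate by -0.77. The cause of these shifts was not tested.

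Mean shares over libraries depended on depth: FABP3 in the surface ectoderm gate 68.1% (85.4% without thinning, 81.1% at 5000 UMIs, 41.0% with at least 2 UMIs), FABP5 in the neural gate 65.5% (83.9%, 77.5%, 39.3%), APOH in the neural gate 21.1% (42.9%, 33.0%, 3.64%) and in the endoderm gate 24.5% (47.8%, 45.3%, 5.75%). APOA1 in the endoderm gate went from 52.4% to 27.4% with at least 2 UMIs. Stages could not be paired because each has 1 library; the gate tests were paired within libraries by the library block.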

Other observations

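Neuromesodermal progenitors, which give rise to spinal cord and paraxial mesoderm, could not be set apart as a gate because 237 of the 262 cells with both TBXT and SOX2 also met the caudal streak gate. In all 262 cells FABP5 was at 379, 378, 635 and 437 CPM from 4S to 13S (457 ± 122), APOH at 23.0 ± 3.22, FABP3 at 8.14 ± 6.78 and APOA1 at 5.63 ± 4.02 CPM.

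The family members outside the 4 genes had other patterns. FABP7 was counted more often than the 4 genes together, with 130936 UMIs, and stood at 483, 505, 762 and 948 CPM in whole libraries from 4S to 13S. RBP5 lay between 203 and 348 CPM in every gate mean. APOD, highest in the caudal streak gate at 27.5 ± 21.2 CPM, was at 30.1, 16.8, 8.92 and 4.59 CPM in whole libraries. APOLD1, which encodes an endothelial protein, was at 18.9 ± 16.7 CPM in the blood and vessel gate and at most 0.311 CPM in the mean of any other gate. These genes were picked after their values had been seen, and their stage values were not tested.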
